A study of Mus musculus with 3 samples.

Results

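Mature T lymphocytes were a rare population of the mouse aorta in these data, with 125 members among 26757 filtered cells from 3 droplet single-cell libraries. The members were chosen by measured values, the UMIs of the marker genes named here. A cell was a member when it held at least 3 UMIs (unique molecular identifiers, each counting 1 captured transcript) on Cd3e, Cd3d, Cd3g, Trbc1 and Trbc2 together, the genes for CD3 chains and for the constant regions of the T cell receptor beta chain. Members also had fewer than 2 UMIs on the thymocyte genes Dntt, Rag1 and Arpp21, 0 UMIs on the B cell genes Cd79a, Cd79b and Ms4a1, fewer than 3 UMIs on the macrophage genes C1qa, C1qb and C1qc, and less than 1% of their UMIs on the smooth muscle genes Acta2 and Tagln. All filtered cells had at least 200 detected genes and less than 20% mitochondrial UMIs.

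The libraries came from male mice whose own Apoe gene had been exchanged for human APOE2, APOE3 or APOE4 at the Apoe locus, on a C57BL/6J background. The mice were 12 weeks old when they were put on a Western diet with 42% fat and 0.2% cholesterol, and all 3 genotypes received it for 16 weeks, so no chow-fed or mouse Apoe group enters the comparison. The tissue was the full length of the aorta, without the fat around it, made into single cells by enzymes. The APOE2 library pooled cells from 6 mice, the APOE3 library from 5 and the APOE4 library from 7. The mice within a pool cannot be told apart, so there is no replicate and no test between genotypes. All intervals below are at 95% and cover counting error only. The filtered cells of the APOE2, APOE3 and APOE4 libraries held 168310501, 125105151 and 124926887 UMIs, and the member cells held 522453, 57656 and 355445 of them. Between 14 and 27 cell barcodes were shared by each pair of libraries, none of them between member cells.

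T lymphocytes recognise antigen through a receptor of alpha and beta chains, read by the coreceptors CD4 or CD8, or through a receptor of gamma and delta chains that works without them. Naive T cells recirculate through blood and lymph nodes and carry the chemokine receptor Ccr7 and the transcription factors Lef1 and Tcf7. Effector and tissue-resident cells lose these genes and express others, such as Cxcr6. Gamma delta cells of the type 17 kind depend on the interleukin 23 receptor and are found in barrier tissues, fat and the vessel wall.

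Member cells were about as frequent in the APOE2 and APOE4 aortas and less frequent in the APOE3 aorta. They were 64 of 11772 filtered cells in APOE2, a share of 0.544% (exact binomial interval 0.419 to 0.694). In APOE3 they were 8 of 6737 cells, or 0.119% (0.0513 to 0.234). In APOE4 they were 53 of 8248 cells, or 0.643% (0.482 to 0.840). The share in APOE2 was 4.58-fold that in APOE3 (log2 ratio 2.19, interval 1.13 to 3.47) and the share in APOE4 5.41-fold (log2 ratio 2.44, interval 1.35 to 3.72), while APOE4 and APOE2 differed by a log2 ratio of 0.24 with an interval of -0.31 to 0.79. With 1 pool of mice for each genotype, fewer T cells in the aorta and a lower yield of T cells from the digestion cannot be told apart. The members had similar depth in the 3 libraries, with medians of 5710, 6681.5 and 6100 UMIs per cell.

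**Figure D1:**
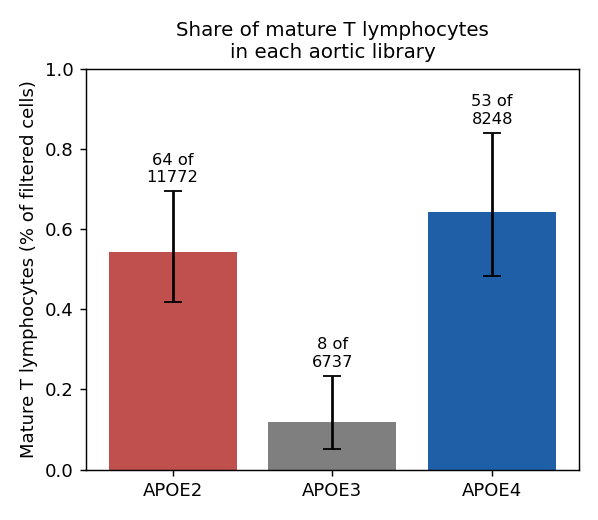
Percent of filtered cells that were mature T lymphocytes (y axis) in each library (x axis), with exact binomial 95% intervals and the number of cells above each bar. The APOE3 bar at 0.119% lies below the intervals of the APOE2 bar at 0.544% and the APOE4 bar at 0.643%.

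The limit of 3 UMIs had few cells near it. Exactly 3 UMIs on the CD3 and Trbc genes were held by 3 APOE2, 2 APOE3 and 1 APOE4 members, and 3, 1 and 1 cells with exactly 2 UMIs were left out. Of the 5 cells just outside, 2 in APOE2 and 1 in each other library had a UMI of Il7r, which encodes the interleukin 7 receptor that keeps T cells alive. The limit on Acta2 and Tagln left out 11, 5 and 11 further cells that met the other conditions, and the limit on thymocyte genes separated 1 cell with 2 such UMIs in each of APOE2 and APOE4 from 1, 1 and 4 members with 1 UMI.

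T cell genes outside the choice were found in part of the members only, and in unlike shares of the 3 libraries. Cd3e, Cd3g and Trbc2 chose the members, so their presence checks nothing. Of the markers that the choice did not use, Lck, the kinase that starts receptor signalling, was found in 25 of 64 APOE2, 3 of 8 APOE3 and 42 of 53 APOE4 members, and Il7r in 50, 6 and 41. Of 10 further T cell genes outside the choice, which include the receptor alpha chain Trac and the signalling genes Cd247 and Skap1, all 10 were detected in every library, at 2394, 3226 and 3612 counts per 1000000 member UMIs (CPM) together in APOE2, APOE3 and APOE4, and at 3590 CPM in APOE2 without 3 cells described next. Yet 18 members (12 in APOE2, 2 in APOE3, 4 in APOE4) had fewer than 2 UMIs on the CD3 chains Cd3e, Cd3d and Cd3g. They had entered mostly through Trbc1 and Trbc2 transcripts, of which each cell held at least 2 UMIs.

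These 18 cells were of several kinds. The first consisted of 3 APOE2 cells of 36055, 43962 and 94521 UMIs. These 3 cells had 0 UMIs of Ptprc, the pan-leukocyte phosphatase CD45. They held 25908 UMIs of Spp1 (osteopontin), 9771 of Mgp (matrix Gla protein) and 4815 of Timp1 (a metalloproteinase inhibitor), beside 18 UMIs of Trbc2. They alone carried 174538 UMIs, or 33.4% of all member UMIs of APOE2, so that a gene they lack reads lower in the APOE2 sum with them than without them. For this reason the list medians of APOE4 to APOE2, and the ratios of many of the genes named, are given without these 3 cells as well.

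A second kind had UMIs of Il1rl1, the interleukin 33 receptor of type 2 innate lymphoid cells and some T cells. It made up 7, 2 and 1 of the CD3 chain-low members. Across all members, Il1rl1 was found in 9 APOE2 cells, 2 APOE3 cells and 1 APOE4 cell. In APOE2 those 9 cells held 49 of the 59 UMIs of Gata3, the master transcription factor of type 2 lymphocytes, and 54 of the 57 UMIs of Areg (amphiregulin, a repair growth factor), and all 9 had Ptprc and Il7r. Another kind consisted of 3 APOE4 cells with Ncr1, the natural killer receptor NKp46. Ncr1 was found in 4 APOE4 members and in none of the other libraries, and those 4 held 218 of the 279 UMIs of Gzma (granzyme A) and all 41 UMIs of Tyrobp, an adaptor of natural killer receptors. The remaining 2 CD3 chain-low cells were in APOE2. The part that these 18 cells play in the results was not tested beyond the values given with and without them.

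Genes of other cell types were counted in the members as well. Fibroblast genes summed to 3667, 2584 and 985 CPM in APOE2, APOE3 and APOE4, with 1161 CPM in APOE2 without the 3 cells over 30000 UMIs, and 3, 1 and 2 members had 10 or more UMIs of Dcn (decorin). Smooth muscle genes, which the limit on Acta2 and Tagln holds down, summed to 1694, 746 and 692 CPM, and to 831 CPM in APOE2 without the 3 cells. Natural killer genes summed to 93.8, 17.3 and 701 CPM and the genes of type 2 innate lymphoid cells to 410, 1127 and 98.5 CPM, with 141 and 612 CPM in APOE2 without the 3 cells. Among adipocyte genes Fabp4 alone was detected, with 204 UMIs in APOE2, 2 of them outside the 3 cells, and 2 in APOE4, and Adipoq, Plin1 and Cfd were at 0. Macrophage genes reached at most 69.4 CPM, neutrophil genes 17.3 CPM, erythroid genes 78.8 CPM and endothelial genes 104 CPM, and in each library Cd79a, Cd79b and Ms4a1 were at 0 by the choice of cells. B lymphocyte genes summed to 38.3, 86.7 and 76.0 CPM, nearly all of it Ighm. Thymocyte genes summed to 220, 208 and 582 CPM, led by Themis in APOE2 and APOE4, a gene that mature T cells express too. Rag1, Rag2 and Ptcra were at 0 in every library.

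The members fell into classes by their own UMIs that differed between the libraries. Apart from the CD3 chain-low cells, a cell with at least 2 UMIs of Trdc, the constant region of the delta chain, was placed in a Trdc class, and the remaining cells were divided by Cd4 and by Cd8a or Cd8b1. The Trdc class held 21 of 64 members in APOE2 (32.8%), 2 of 8 in APOE3 (25%) and 6 of 53 in APOE4 (11.3%). The CD8 class held 7 (10.9%), 1 (12.5%) and 22 (41.5%) members. The CD4 class held 6 (9.38%), 0 and 10 (18.9%) members. A further 1, 0 and 2 cells had UMIs of both coreceptors, and 17, 3 and 9 cells had neither coreceptor and fewer than 2 UMIs of Trdc. Trdc-class cells thus outnumbered CD8-class cells in APOE2, and CD8-class cells outnumbered Trdc-class cells in APOE4.

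**Figure D2:**
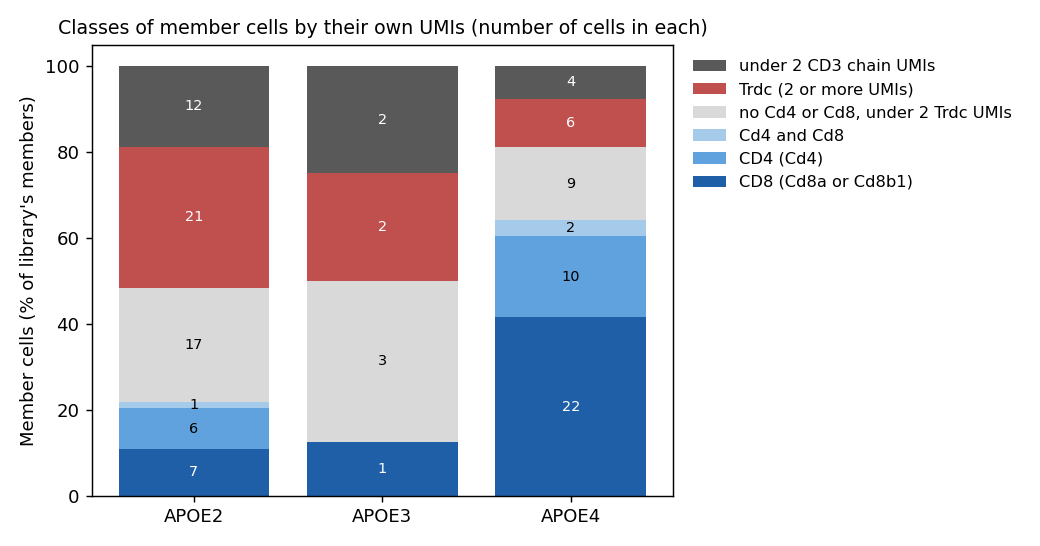
Percent of each library's member cells (y axis) in each class (colours), with the number of cells printed in each segment. Red marks the Trdc class, with 21, 2 and 6 cells, and dark blue the CD8 class, with 7, 1 and 22 cells.

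Because Cd4 and Cd8 transcripts are few, the coreceptor shares can depend on depth and on the UMIs that a thinning draws. When every cell was thinned to 1000 UMIs, cells with Cd8a or Cd8b1 and no Cd4 were 12.5% of APOE2 members (interval 5.55 to 23.2), 12.5% of APOE3 members (0.316 to 52.7) and 22.6% of APOE4 members (12.3 to 36.2). Cells with Cd4 alone were 3.13%, 0% and 3.77%. Without thinning, over all members, the shares with Cd8 alone were 10.9%, 12.5% and 41.5%, and those with Cd4 alone 9.38%, 0% and 18.9%. At 1000 UMIs the intervals of APOE2 and APOE4 overlapped for both coreceptors. Each depth was 1 random draw, and the spread over draws was not measured. The APOE2 share with Cd8 alone was no lower at 1000 UMIs than without thinning. Thinned to 2000 UMIs, cells with Cd8 alone were 8.20% of APOE2 members (2.72 to 18.1) and 30.8% of APOE4 members (18.7 to 45.1), with intervals apart, and cells with Cd4 alone 4.92% (1.03 to 13.7) and 13.5% (5.59 to 25.8), with intervals that overlapped. At 1000 UMIs, Cd4 was found in at most 0.0763% of smooth muscle cells and Cd8a and Cd8b1 in none of them, nor was any of the 3 found in B cells. The median depth was 5710, 6681.5 and 6100 UMIs in the members and 14924.5, 19071 and 14242.5 UMIs in smooth muscle cells before thinning.

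Levels summed over the members gave the same order for Cd8. Cd8b1, the CD8 beta chain of conventional cytotoxic T cells, stood at 86.1 CPM in APOE2 (62.8 to 115), 156 CPM in APOE3 (71.4 to 296) and 301 CPM in APOE4 (247 to 364). The log2 ratio of APOE4 to APOE2 was 1.81 (1.29 to 2.34), and 1.22 without the 3 cells over 30000 UMIs. Cd4 had 11 UMIs in 7 APOE2 cells, 0 in APOE3 and 25 UMIs in 12 APOE4 cells, a log2 ratio of APOE4 to APOE2 of 1.74 (0.66 to 2.91), and 1.15 without the 3 cells. Foxp3, the regulatory T cell factor, had 2 UMIs, both in 1 APOE2 cell, and 0 in the other libraries, where the limit that a count of 0 allows is 3 UMIs.

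Type 17 and gamma delta genes were lower in APOE4 than in APOE2 for every gene that could be measured. A gene counted as measured with at least 30 UMIs in the 2 libraries of a ratio together. Of the 12 measured genes of this list, 12 were past 2-fold lower in APOE4 and 0 higher, with a median log2 ratio of -3.01 (-3.58 without the 3 cells over 30000 UMIs). Among all 4373 genes measured in this ratio, 14.8% were past 2-fold lower and 9.95% past 2-fold higher, with a median log2 ratio of -0.0099. Since the label, the members and the lists were set with earlier results in view, the counts describe these libraries and nothing more.

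Trdc itself (chr14:54142851-54148868, plus strand, mm10) had 269 UMIs in 22 APOE2 cells, 51 UMIs in 2 APOE3 cells and 47 UMIs in 9 APOE4 cells. These correspond to 515 CPM (455 to 580), 885 CPM (659 to 1163) and 132 CPM (97.2 to 176). APOE4 was the lowest, and its interval lay below the other ones, though the intervals count UMIs and the APOE3 one rests on 2 cells. The log2 ratio of APOE4 to APOE2 was -1.96 (-2.44 to -1.51), and -2.53 without the 3 cells.

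Cd163l1, a scavenger receptor of the CD163 family known from interleukin 17-producing gamma delta cells, marked the Trdc class. It lies at chr7:140218267-140231145 on the plus strand of mm10 and stood at 457 CPM in APOE2 (401 to 519), 971 CPM in APOE3 (734 to 1260) and 56.3 CPM in APOE4 (34.4 to 86.9). Within the Trdc class it was found in 19 of 21 APOE2 cells, 2 of 2 APOE3 cells and 4 of 6 APOE4 cells, at median depths of 5755, 8097.5 and 3773 UMIs. All 239 APOE2 UMIs and all 56 APOE3 UMIs were in Trdc-class cells, as were 18 of the 20 APOE4 UMIs. The log2 ratio of APOE4 to APOE2 over all members was -3.02 (-3.76 to -2.36), and -3.61 without the 3 cells.

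Il23r, the receptor through which interleukin 23 maintains type 17 lymphocytes, followed the same order. The gene was found in 20 APOE2, 2 APOE3 and 4 APOE4 cells. It lies at chr6:67422932-67491855 on the minus strand of mm10. Its level was 145 CPM in APOE2 (115 to 182), 382 CPM in APOE3 (239 to 578) and 14.1 CPM in APOE4 (4.57 to 32.8), a log2 ratio of APOE4 to APOE2 of -3.37 (-5.03 to -2.08), and -3.96 without the 3 cells. The promoters of Cd163l1 and Il23r are shown because these genes were found in 25 and 18 of the 29 Trdc-class cells. They are RefSeq sequences of GRCm38.p6, from 250 bases before to 50 bases after the gene start, at chr6:67491806-67492105 (minus strand) for Il23r and chr7:140218017-140218316 (plus strand) for Cd163l1. Capitals mark AGGTCA on either strand, a core sequence bound by several nuclear receptors.
Il23r: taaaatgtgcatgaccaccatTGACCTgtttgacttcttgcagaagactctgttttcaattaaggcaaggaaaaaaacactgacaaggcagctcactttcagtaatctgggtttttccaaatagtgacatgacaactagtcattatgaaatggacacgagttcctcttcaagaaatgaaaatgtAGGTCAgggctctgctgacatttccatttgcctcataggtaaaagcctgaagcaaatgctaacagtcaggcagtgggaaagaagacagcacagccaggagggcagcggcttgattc
Cd163l1: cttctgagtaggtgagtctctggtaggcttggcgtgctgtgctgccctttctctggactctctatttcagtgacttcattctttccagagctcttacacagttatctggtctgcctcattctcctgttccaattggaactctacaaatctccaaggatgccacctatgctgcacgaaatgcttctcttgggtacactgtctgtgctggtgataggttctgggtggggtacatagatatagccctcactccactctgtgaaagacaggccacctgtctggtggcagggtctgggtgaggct
The Il23r promoter held 2 matches, 1 on each strand and not overlapping, and the Cd163l1 promoter held 0. Of 32851 mouse promoters of the same length, 16.3% held at least 1 match.

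APOE4 was also the lowest library for the other measured genes of the list that are described here. Blk, a Src-family kinase used by gamma delta cells of the type 17 kind, had 68 UMIs in 19 APOE2 cells, 14 UMIs in 2 APOE3 cells and 2 UMIs in 2 APOE4 cells (log2 ratio of APOE4 to APOE2 -4.53, interval -7.61 to -2.62, and -5.12 without the 3 cells). Tcrg-C1, a gamma chain constant region, had 84, 21 and 5 UMIs and a log2 ratio of -3.51. Il1r1, the interleukin 1 receptor that activates these cells, had 95, 9 and 12 UMIs and a log2 ratio of -2.43. Zbtb16, which encodes PLZF of innate-like T cells, had a log2 ratio of -2.90, and the broader lymphoid factors Maf and Rora had log2 ratios of -1.69 and -1.47. The Il1rl1-positive cells held 39.8% of the Rora UMIs of APOE2 and 67.3% of those of APOE3. Tcrg-C4, another gamma constant region, had a log2 ratio of -1.30, and reads may be shared between such near copies. Among genes of the list with too few UMIs to be measured, the lineage factor Sox13 had 14, 1 and 0 UMIs, at least 3.17-fold lower in APOE4 than in APOE2. Il17a, the cytokine that names the type, had 3 UMIs in APOE2 and 0 in the other libraries, and Il17f had 0 UMIs in all 3.

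Tmem176a and Tmem176b, a neighbouring pair of ion channel genes used by type 17 lymphocytes, were among the most abundant members of the list. Tmem176b stood at 840 CPM in APOE2 (763 to 923), 538 CPM in APOE3 (365 to 763) and 42.2 CPM in APOE4 (23.6 to 69.6). It was found in 37, 3 and 8 cells. Thinned to 1000 UMIs, 43.8% of APOE2 members, 25% of APOE3 members and 5.66% of APOE4 members had a UMI, against 57.8%, 37.5% and 15.1% unthinned and 1.68%, 2.48% and 1.74% of smooth muscle cells thinned. The log2 ratio of APOE4 to APOE2 was -4.32 for Tmem176b and -3.86 for Tmem176a, and -4.41 and -4.11 without the 3 cells.

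Variable segments of the receptor genes were counted as well. The delta chain variable segment Trdv4 had 63 UMIs in 19 APOE2 cells, 6 UMIs in 3 APOE3 cells and 10 UMIs in 4 APOE4 cells, and 21 of the 29 Trdc-class cells carried it. The gamma chain segment Trgv2, as the files name it, had 19, 0 and 5 UMIs. In contrast, segments of the alpha chain (Trav) summed to 11, 1 and 39 UMIs and segments of the beta chain (Trbv) to 15, 4 and 31 UMIs. The segment counts are small, and similar segments can share reads.

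Other genes found in most Trdc-class cells were also found in cells outside the class. Of the 29 cells, 28 had Il7r, 28 had S100a4 (a calcium-binding protein of memory and tissue cells), 26 had Cxcr6 (the receptor for the tissue chemokine Cxcl16) and 26 had Tmem176b. Of the 29 cells with neither coreceptor, 23 had Il7r, 16 S100a4, 14 Cxcr6 and 8 Tmem176b, and of the 30 CD8-class cells 23, 3, 13 and 1. Lck, the kinase that starts alpha beta receptor signalling at the coreceptors, was found in 3 of the 29, and Themis and Cd28, a thymic selection gene and the costimulatory receptor, in 2 each. Ccr7 and Dapl1 had 0 UMIs in all 29. The 6 APOE4 cells of the class were shallower, at a median of 3773 UMIs against 5755 in the 21 APOE2 cells and 8097.5 in the 2 APOE3 cells, and the shares of cells with a UMI given for the class were not thinned to 1 depth. Cd163l1 stood at 1695 CPM in the APOE2 cells of the class (1487 to 1924) and 649 CPM in the APOE4 cells (384 to 1025), and Tmem176b at 1518 CPM (1321 to 1735) and 396 CPM (198 to 709). Trdc chose these cells and is not set beside them. The lower APOE4 sums of Cd163l1 and Tmem176b cannot be read as lower levels in each cell, because 2 of the 6 cells, the deepest at 6765 and 8467 UMIs, had 13.3 and 14.2 UMIs per 10000 of the type 17 and gamma delta list, against 65.0 to 87.9 in the other 4, which held 2463 to 4112 UMIs. The cell of 6765 UMIs also had 4 UMIs of Ncr1.

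**Figure D3:**
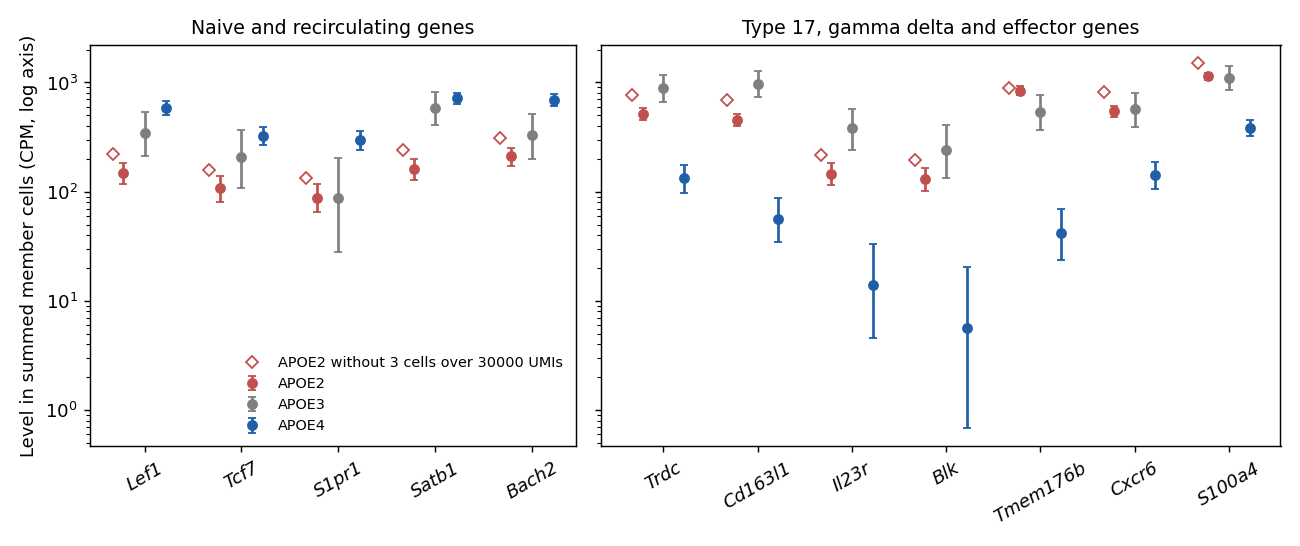
Level of each gene in the summed member cells (y axis, CPM on a log axis) in the 3 libraries (colours), with exact Poisson 95% intervals and open diamonds for APOE2 without its 3 cells over 30000 UMIs. APOE4 is the highest library for Lef1, Tcf7, S1pr1, Satb1 and Bach2 on the left and the lowest for the 7 genes on the right.

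Naive and recirculating genes moved the other way. Of the 12 measured genes of this list, 10 were past 2-fold higher in APOE4 than in APOE2 and 1 lower, with a median log2 ratio of 1.73. Without the 3 cells over 30000 UMIs the median was 1.27, with 9 past 2-fold higher and 0 lower, beside 5.33% higher and 10.1% lower among all genes measured in that setting. B cells, which recirculate too, numbered 24, 8 and 251 in the 3 libraries, and their part in this result was not tested.

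Lef1, the partner of Tcf7 in keeping the naive state, stood at 147 CPM in APOE2 (116 to 184), 347 CPM in APOE3 (212 to 536) and 585 CPM in APOE4 (508 to 670). The APOE2 interval lay below the others, but without the 3 cells APOE2 stood at 221 CPM (175 to 277) and overlapped APOE3, as APOE3 did APOE4. Its log2 ratio of APOE4 to APOE2 was 1.99 (1.61 to 2.39), and 1.40 without the 3 cells. Thinned to 1000 UMIs, Lef1 was found in 12.5% of APOE2, 12.5% of APOE3 and 39.6% of APOE4 members, and in 26.6%, 25% and 73.6% unthinned. S1pr1, the receptor with which lymphocytes leave lymph nodes and tissues, stood at 88.0, 86.7 and 295 CPM (log2 ratio 1.75, interval 1.23 to 2.28, and 1.16 without the 3 cells). Here APOE2 and APOE3 were alike within their intervals and APOE4 was higher. Satb1, a chromatin organiser of T cells, stood at 161, 590 and 715 CPM (log2 ratio 2.15, and 1.57 without the 3 cells), and Bach2, which restrains effector differentiation, at 211, 330 and 698 CPM (log2 ratio 1.73, and 1.16 without). For these 2 genes APOE3 lay between the other libraries when all members were summed, the 3 large APOE2 cells included. The 2 Il1rl1-positive cells of APOE3 held 32.4% of the Satb1 UMIs of that library. Ccr7 had 6 UMIs in 4 APOE2 cells, 7 UMIs in 2 APOE3 cells and 36 UMIs in 13 APOE4 cells (log2 ratio 3.14, interval 1.88 to 4.68, and 2.55 without the 3 cells).

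Klf2, which drives S1pr1, had a log2 ratio of 1.50, but it is no T cell gene alone. After thinning it was found in 15.6%, 25% and 39.6% of members and in 11.5%, 12.3% and 26.0% of smooth muscle cells, so that both cell types were highest in APOE4. Il7r, which naive and memory cells share, stood at 733 CPM in APOE2 (661 to 810), 780 CPM in APOE3 (569 to 1041) and 703 CPM in APOE4 (619 to 796), with overlapping intervals. The 3 cells over 30000 UMIs had 0 UMIs of Il7r, and without them APOE2 stood at 1101 CPM (993 to 1217), above the APOE4 interval (log2 ratio of APOE4 to APOE2 -0.65, interval -0.88 to -0.41). Igfbp4 was the 1 gene of the list past 2-fold lower (log2 ratio -2.0). In APOE2, 80.9% of its UMIs were in 1 cell, and without the 3 cells over 30000 UMIs its log2 ratio was 0.87.

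Dapl1, a gene named by the largest ratio and found in naive CD8 T cells, had 5 UMIs in 4 APOE2 cells, 7 UMIs in 2 APOE3 cells and 58 UMIs in 10 APOE4 cells. Its log2 ratio of APOE4 to APOE2 was 4.09 (2.79 to 5.77), and 3.51 without the 3 cells. The gene lies at chr2:59484653-59505020 on the plus strand of mm10, and its promoter (RefSeq, GRCm38.p6, chr2:59484403-59484702, plus strand) is shown as that of the most unequal gene on the naive side, searched on both strands for CTTTGA, the core bound by Lef1 and Tcf7.
Dapl1: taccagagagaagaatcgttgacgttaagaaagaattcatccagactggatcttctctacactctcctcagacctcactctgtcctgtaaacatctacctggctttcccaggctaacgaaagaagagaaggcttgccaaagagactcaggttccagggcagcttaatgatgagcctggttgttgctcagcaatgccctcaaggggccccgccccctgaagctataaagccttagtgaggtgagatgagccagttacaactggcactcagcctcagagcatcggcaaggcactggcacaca
It held 0 matches to CTTTGA and 0 to AGGTCA, and 16.0% of the 32851 promoters held CTTTGA.

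Within the CD8 class the naive genes did not all keep the difference seen over all members. Lef1 stood at 607 CPM in the 7 APOE2 cells of the class (380 to 919) and 695 CPM in the 22 APOE4 cells (575 to 833), and S1pr1 at 248 CPM (114 to 471) and 273 CPM (200 to 364). The intervals overlapped for both genes. Il7r stood at 221 CPM (95.3 to 435) and 796 CPM (667 to 942) in the same cells, with intervals apart and APOE4 higher. Dapl1 had 1 UMI in 1 of the 7 APOE2 cells and 43 UMIs in 8 of the 22 APOE4 cells, and Ccr7 had 0 UMIs and 26 UMIs in 10 cells. In the CD4 class, Lef1 stood at 396 CPM in the 6 APOE2 cells (197 to 708) and 891 CPM in the 10 APOE4 cells (654 to 1184), and S1pr1 had 1 UMI in APOE2 and 34 UMIs in 8 of the 10 APOE4 cells.

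The UMIs of both lists were also set side by side in each cell. The type 17 and gamma delta list gave a median of 23.8 UMIs per 10000 in APOE2 members (0 to 165), 14.6 in APOE3 members (0 to 151) and 0.924 in APOE4 members (0 to 87.9), and it was at 0 in 14 of 64, 3 of 8 and 25 of 53 cells. The naive and recirculating list gave medians of 24.2 (0 to 101), 27.8 (0 to 111) and 52.3 (10.7 to 123). The type 17 and gamma delta list holds Trdc, which defines the Trdc class, so the level of that class on the list is partly fixed by the choice of cells. The Trdc class of APOE2 had a median of 86.2 type 17 and 22.9 naive UMIs per 10000, and the CD8 class of APOE4 a median of 0 and 53.6. The 6 Trdc-class cells of APOE4 had medians of 71.4 and 34.4, but 2 of them, at 13.3 and 14.2 type 17 UMIs per 10000, lay within the range of the other APOE4 cells.

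**Figure D4:**
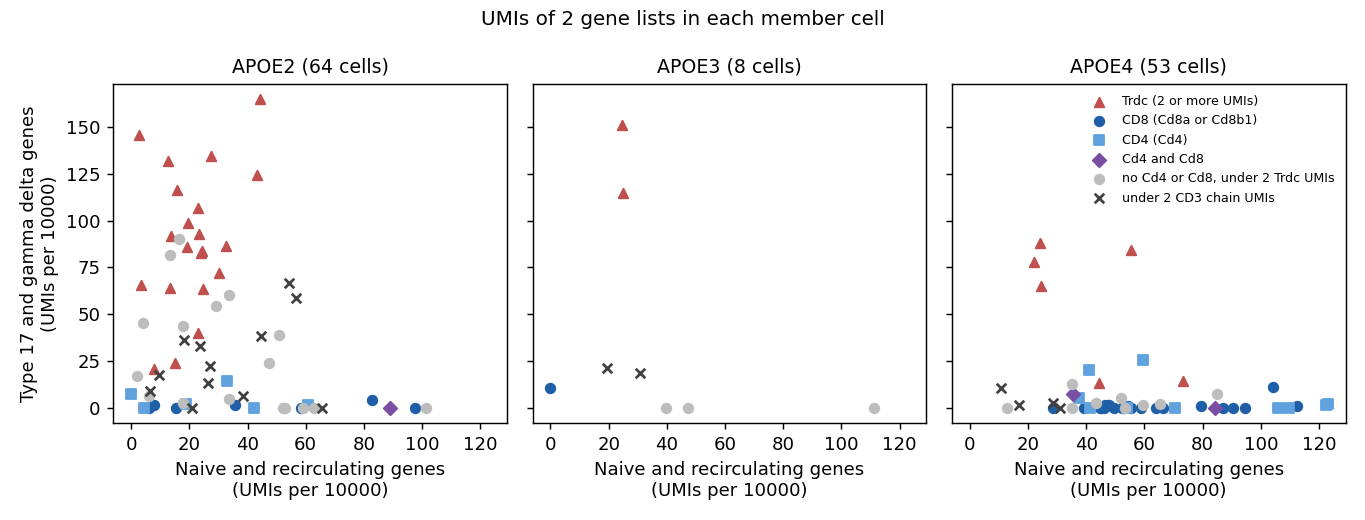
UMIs per 10000 of the naive and recirculating list (x axis) and of the type 17 and gamma delta list (y axis) in each member cell, 1 panel for each library, with symbols for the class. The Trdc-class cells (red triangles) have medians of 86.2, 133 and 71.4 on the y axis, with the lowest at 20.9 in APOE2 and at 13.3 in APOE4, level with cells of other classes, and 25 of the 53 APOE4 cells lie at 0 on that axis.

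Cytotoxic genes were higher in APOE4, although the cells that carried them differed. Of 11 measured genes, 9 were past 2-fold higher in APOE4 than in APOE2 and 1 lower, with a median log2 ratio of 1.50, and without the 3 cells over 30000 UMIs 5 were higher and 1 lower, with a median of 0.92. With at least 2 UMIs on the CD3 chains asked for, which also leaves out 3 of the Ncr1-positive cells, the median was 0.46. Ccl5, a chemokine of memory and cytotoxic cells, stood at 1013 CPM in APOE2 (928 to 1103), 1665 CPM in APOE3 (1349 to 2033) and 2754 CPM in APOE4 (2584 to 2932). Its log2 ratio of APOE4 to APOE2 without the 3 cells was 0.86, under 2-fold. It came from 13, 1 and 21 cells, the 1 APOE3 cell being of the CD8 class. Nkg7, a granule protein, stood at 224, 364 and 636 CPM (log2 ratio 1.51, and 0.92 without the 3 cells, under 2-fold), and the killer receptor gene Klrd1 at 72.7, 34.7 and 245 CPM (log2 ratio 1.75, and 1.16 without). Within the CD8 class the order of the summed levels was the other way. Ccl5 stood at 6152 CPM in APOE2 (5371 to 7015) and 1983 CPM in APOE4 (1776 to 2208). Nkg7 stood at 1683 CPM (1287 to 2162) and 677 CPM (558 to 813). Ccl5 was found in 5 of the 7 APOE2 and 10 of the 22 APOE4 cells of the class, and Nkg7 in 7 and 19. These intervals count UMIs and do not cover the spread between so few cells. Ifng, the cytokine interferon gamma, was the 1 gene of the list past 2-fold lower, with 35, 0 and 5 UMIs. Gzma had 3, 0 and 279 UMIs, of which 218 were in 3 of the Ncr1-positive cells, and 0 in the APOE4 cells of the CD8 class. The 4 Ncr1-positive cells also held 29.5% of the Ccl5 UMIs and 25.2% of the Nkg7 UMIs of APOE4. Ly6c2, a surface protein of memory-type CD8 cells, had 49 UMIs in 7 APOE2 cells, 0 in APOE3 and 117 UMIs in 19 APOE4 cells (log2 ratio 1.81, and 1.22 without the 3 cells).

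Effector and memory genes were mostly lower in APOE4. Of 16 measured genes, 9 were past 2-fold lower than in APOE2 and 3 higher, with a median log2 ratio of -1.16. Without the 3 cells over 30000 UMIs, 8 were lower and 1 higher, with a median of -1.12, and without the limit on Acta2 and Tagln the median was -0.44. Cxcr6 stood at 546 CPM in APOE2 (484 to 613), 572 CPM in APOE3 (394 to 804) and 143 CPM in APOE4 (107 to 189). It was found in 42, 5 and 18 cells, and after thinning in 37.5%, 12.5% and 11.3% of members and in 0 smooth muscle cells. S100a4 stood at 1139, 1110 and 385 CPM (log2 ratio of APOE4 to APOE2 -1.56, and -1.97 without the 3 cells), with APOE2 and APOE3 alike within their intervals. Il2ra, the high-affinity interleukin 2 receptor chain, had 62 UMIs in 27 APOE2 cells, 10 UMIs in 4 APOE3 cells and 1 UMI in 1 APOE4 cell (log2 ratio -5.40, interval -10.72 to -2.87). In APOE2, 30 of its 62 UMIs were in the 9 Il1rl1-positive cells. Pdcd1, the inhibitory receptor PD-1, had 50, 14 and 4 UMIs (log2 ratio -3.09), and Icos, a costimulatory receptor, 104, 8 and 28 UMIs (log2 ratio -1.34).

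Tissue residence genes were lower in APOE4 for 4 of the 5 measured, with 0 past 2-fold higher and a median log2 ratio of -1.28 (-1.87 without the 3 cells, with 4 lower). Rgs1, a brake on chemokine receptor signalling, stood at 358, 121 and 146 CPM (log2 ratio of APOE4 to APOE2 -1.29), and Rgs2 at 369, 1665 and 135 CPM (log2 ratio -1.45). Cd69, which holds cells in tissue by opposing S1pr1, stood at 122 CPM (94.3 to 156), 260 CPM (146 to 429) and 149 CPM (112 to 195), with overlapping intervals. Type 2 genes had 3 measured members, 2 of them past 2-fold lower and 0 higher, with a median log2 ratio of -3.12 (-3.68 without the 3 cells, with 3 lower). They were Il1rl1 (76, 26 and 2 UMIs) and Areg (57, 15 and 4 UMIs). The Il1rl1-positive cells held 94.7%, 93.3% and 25% of the Areg UMIs in APOE2, APOE3 and APOE4. The other measured gene, Gata3, had 59, 23 and 24 UMIs and a log2 ratio of -0.74 (-1.33 without the 3 cells). It turned to 0.15 when at least 2 UMIs on the CD3 chains were asked for. The median of the type 2 list changed direction too. It was 0.14 in that setting, with 1 gene measured. At a minimum of 2 UMIs on the CD3 and Trbc genes it was 0.059, with 5 genes measured.

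The T cell receptor signalling list had all 18 genes measured, 8 past 2-fold higher in APOE4 than in APOE2 and 0 lower, with a median log2 ratio of 0.92. Without the 3 cells over 30000 UMIs the median was 0.33, with 2 past 2-fold higher and 0 lower. Lck stood at 101 CPM (76.0 to 133), 208 CPM (108 to 364) and 377 CPM (316 to 446), a log2 ratio of 1.89 (1.31 without the 3 cells), and was found in 25, 3 and 42 cells. Cd28 had a log2 ratio of 1.72 (1.13 without), whereas Thy1 and Lat, which all T cell classes use, had log2 ratios of -0.05 and 0.12 (-0.61 and -0.47 without).

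Immediate early and dissociation genes were lower in APOE4 for 10 of 15 measured genes and past 2-fold higher for 0, with a median log2 ratio of -1.28. Without the 3 cells over 30000 UMIs, 7 were lower and 0 higher, with a median of -0.90. Fos stood at 1233, 1231 and 183 CPM, but 54.0% of its APOE2 UMIs were in 1 cell, and the log2 ratio of APOE4 to APOE2 was -2.75 with the 3 cells over 30000 UMIs and -1.38 without them. Junb stood at 1926, 4180 and 791 CPM (log2 ratio -1.28), with APOE4 again the lowest. When the limit on Acta2 and Tagln was lifted, the median of the list turned to 0.15. Genes of this kind are known to respond to the digestion of tissue.

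The remaining lists had medians nearer to 0, and those of MHC class I and regulatory genes changed sign without the 3 cells. Interferon-stimulated genes had 6 measured members, 1 past 2-fold higher (Ifi27l2a, log2 ratio 1.22, and 0.64 without the 3 cells) and 0 lower, with a median of 0.69, and without the 3 cells 0 were past 2-fold and the median was 0.19. MHC class I genes had 10, with 1 higher, 0 lower and a median of 0.18, against 0 past 2-fold and -0.26 without the 3 cells. Chemokine and cytokine receptors had 15, with 4 higher, 3 lower and a median of -0.06, against 2 higher, 4 lower and -0.65 without the 3 cells. Among them were Ccr2, the receptor for monocyte chemokines, at 195, 225 and 67.5 CPM and Cxcr4 at 122, 34.7 and 28.1 CPM. Regulatory genes had 3, with 0 higher, 1 lower (Il2ra) and a median of 0.58, against -0.01 without the 3 cells, and Ikzf2 and Tnfrsf18 were not past 2-fold. Proliferation genes had 3, with 1 higher (Stmn1, with 7, 0 and 34 UMIs), 0 lower and a median of 0.56 (0.35 without the 3 cells), and Mki67, the marker of cycling cells, had 1, 1 and 2 UMIs. Sterol efflux genes had 4, with 0 higher, 1 lower (Nr1h2, log2 ratio -2.20) and a median of -0.20, and -0.25 without the 3 cells, where Nr1h2 fell under 30 UMIs and was not counted. The cholesterol exporter Abca1 stood at 45.9, 17.3 and 42.2 CPM. None of the 13 sterol synthesis and uptake genes reached 30 UMIs, and they summed to 195, 156 and 186 CPM.

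**Figure D5:**
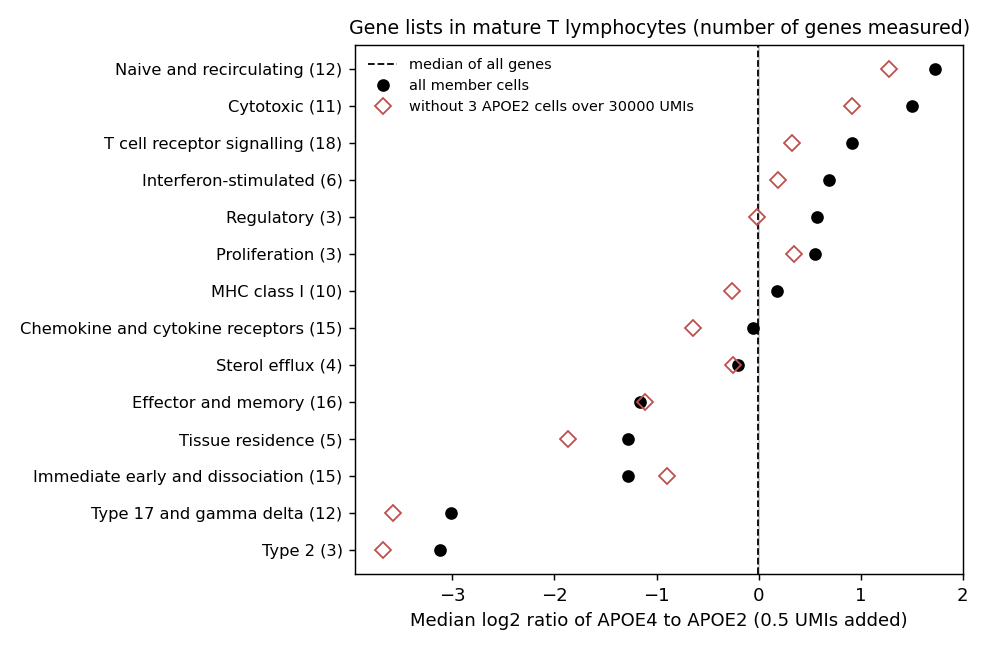
Median log2 ratio of APOE4 to APOE2 (x axis) over the measured genes of each list (y axis, number of genes in brackets), with filled points for all members, open diamonds without the 3 APOE2 cells over 30000 UMIs and a dashed line for the median of all genes. Naive and recirculating genes lie at 1.73 and type 17 and gamma delta genes at -3.01, and most diamonds sit to the left of their points.

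Named by size of the ratio of APOE4 to APOE2, the 8 genes furthest down were Il2ra, Il1rl1, Tmem176b, Blk, Sdc4, Tmem176a, Hilpda and Cish. Sdc4 (syndecan 4, a heparan sulphate proteoglycan) had 106 UMIs in 26 APOE2 cells, 11 UMIs in 2 APOE3 cells and 4 UMIs in 4 APOE4 cells (log2 ratio -4.17). Hilpda, a hypoxia-induced inhibitor of lipid breakdown, had 107, 14 and 6 UMIs (log2 ratio -3.60), and Cish, a cytokine-induced brake on interleukin 2 signalling, 69, 8 and 4 UMIs (log2 ratio -3.55). The 3 genes were lowest in APOE4 and were found in 26, 23 and 31 APOE2 cells.

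The 8 genes furthest up were Dapl1, Cmah, Nsg2, Hist1h4m, Samd3, Slfn1, Aff3 and Ms4a4c. Cmah, an enzyme that makes a sialic acid, had 11 UMIs in 6 APOE2 cells, 7 UMIs in 2 APOE3 cells and 94 UMIs in 32 APOE4 cells (log2 ratio 3.65, and 3.06 without the 3 cells). Aff3, a lymphoid nuclear factor, had 21, 12 and 123 UMIs, the last in 36 cells (log2 ratio 3.11). Slfn1, of the schlafen family that is linked to T cell quiescence, had 6, 1 and 41 UMIs (log2 ratio 3.33). Samd3 had 7, 0 and 49 UMIs, of which 10 of the APOE4 UMIs were in the Ncr1-positive cells. Nsg2, Hist1h4m and Ms4a4c had log2 ratios of 3.48, 3.46 and 3.14. Hist1h4m is uncertain, since its reads can be shared with near copies among the histone genes.

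Ratios to APOE3 rest on 8 cells and are given as values. The 2 Il1rl1-positive cells among them, both CD3 chain-low, held 5711 and 15941 of the 57656 APOE3 member UMIs. The larger cell had 82 UMIs of Dcn. Together the 2 cells held 35.6% of the Il7r and 26.4% of the S100a6 UMIs of APOE3, and 0 of the Lck and Trac UMIs. The APOE3 levels and the ratios below include them. Of 3052 genes measured in the ratio of APOE2 to APOE3, 14% were past 2-fold higher and 10.6% past 2-fold lower. Naive and recirculating genes had 0 of 9 higher and 3 lower (median log2 ratio -0.58), and type 17 and gamma delta genes 0 of 12 higher and 4 lower (median -0.84, and -0.29 without the 3 APOE2 cells, with 0 lower). Of 2125 genes measured in the ratio of APOE4 to APOE3, 11.5% were past 2-fold higher and 11.9% past 2-fold lower. Here naive and recirculating genes had 4 of 12 higher and 1 lower (median 0.60), and type 17 and gamma delta genes 0 of 5 higher and 5 lower (median -2.88). The ratios share libraries with each other, so that they are not separate evidence.

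By size, the genes lower in APOE4 than in APOE3 included Cd82 (log2 ratio -1.97), a membrane tetraspanin, Zfp36l2 (-1.62), which destabilises messenger RNA, and Nr3c1 (-1.47), the glucocorticoid receptor, found in all 8 APOE3 cells. The genes higher in APOE4 were at 0 or near it in APOE3, such as Ly6c2 (at least 6.33-fold higher), Cbl (at least 2.70-fold) and Samd3 (at least 2.65-fold). In the ratio of APOE2 to APOE3, Il2rb, the shared interleukin 2 and 15 receptor chain, had 58 UMIs in 30 APOE2 cells and 1 UMI in APOE3 (log2 ratio 2.68, interval 0.14 to 8.01). Xrn1, an exonuclease, had a log2 ratio of -2.13 and Wdr26 one of -1.97.

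Set beside the 58 cells with at least 2 thymocyte UMIs (28 in APOE2, 4 in APOE3, 26 in APOE4), the members differed in the genes of maturity. Il7r had 2, 0 and 3 UMIs in those cells against 383, 45 and 250 in the members. Ccl5 had 0, 0 and 1 UMIs there against 529, 96 and 979, and Cxcr6 and Cd163l1 had 0 in all 3 libraries. Lef1 stood at 258 CPM (200 to 329) in the APOE2 and 334 CPM (260 to 423) in the APOE4 cells with thymocyte UMIs. The APOE4 members, at 585 CPM (508 to 670), lay above those cells, and the APOE2 members without the 3 cells over 30000 UMIs, at 221 CPM (175 to 277), overlapped them. The choice of cells used thymocyte genes, so these values describe the division and do not test it.

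Mouse Apoe, which the gene replacement removed, still drew UMIs. The members held 33 UMIs in 11 APOE2 cells, 16 UMIs in 1 APOE3 cell and 4 UMIs in 3 APOE4 cells, or 63.2, 278 and 11.3 CPM. In smooth muscle cells it stood at 159, 152 and 158 CPM. Reads of the human gene counted under the mouse gene and reads of a mouse transcript cannot be told apart in these counts.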

How the data were processed

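Single-cell RNA-seq of 3 aortic libraries, 1 for each genotype, was used. The authors deposited raw UMI counts for each gene and barcode, which the file headers and the submitters' processing notes trace to Cell Ranger 7.0.1 and the mouse build mm10. Strand handling is not given in the sources used here. Of 28506 barcodes, 26757 cells had at least 200 genes and under 20% mitochondrial UMIs.

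Members, gene lists and the ranking of genes were chosen with earlier results of these data known. The cell classes, and the 2 alternatives that left out cells over 30000 UMIs or asked for at least 2 UMIs on Cd3e, Cd3d and Cd3g, were chosen after the data were seen. Levels are UMIs summed over a library's members, as CPM, and their intervals are exact Poisson ones. Log2 ratios have exact conditional binomial intervals and shares exact binomial (Clopper-Pearson) intervals, and 0.5 UMIs were added to each count in list medians and for ranking only. A fold against 0 used a floor of 3 counts over the library's members. No test was computed, since each genotype has 1 library. Genes entered a ratio with at least 30 UMIs in both libraries together. Named genes were the 8 with the largest ratio in each direction among those with at least 100 CPM in 1 library, UMIs in at least 5 cells and at most 33% of UMIs in 1 cell, without mitochondrial, ribosomal protein, predicted and receptor segment genes, beside markers, subset genes, Apoe and list members with at least 30 UMIs. Compared cells were B cells (at least 3 UMIs on Cd79a, Cd79b and Ms4a1), thymocyte-gene cells and smooth muscle cells (at least 5% of UMIs on Acta2 and Tagln). Of 32285 gene identifiers, 32158 matched GENCODE, the source of gene positions.

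Scrublet (scanpy 1.11.5) gave each cell a doublet score and called 0, 0 and 2 cells and so did not work as a caller. No cell was removed for its score, except in the alternative that left out the highest 5% of scores, which held 1 member in APOE2 and 1 in APOE4. Python 3.11.15, numpy 2.4.6, scipy 1.17.1 and pandas 2.3.3 were used. The ratio and its interval were tested on simulated data. A few genes are not reported here.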

Additional observations from a re-analysis of the deposited data

How the results depend on the processing

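No paired analysis was possible because each genotype has 1 library. The alternatives changed the limits that choose cells, the depth of thinning, the scaling, the pseudocount, the minimum UMIs, the doublet scores and the highest cell of each gene, and 2 were added after seeing the data. For the shares of members, the coreceptor shares, the percentages of genes past 2-fold and the APOE4 to APOE2 medians of the naive, effector, cytotoxic and type 17 lists, 189 alternative values stayed within the interval of the reported value (within 1.5-fold for the percentages) and 12 moved. For single genes and all other list medians, 1517 stayed, 231 moved and 27 were reversed, a reversal being a change of sign where the interval, or for a list the median interval of its genes, lay on 1 side of 0. Without thinning, the APOE4 shares with Cd4 alone and with Cd8 alone were 18.9% and 41.5%, and thinned to 2000 UMIs the Cd4 share was 13.5%. Genes past 2-fold in APOE4 to APOE2 were 13.4% without the limit on Acta2 and Tagln, 15.4% without cells over 30000 UMIs and 15.7% with at least 2 UMIs on CD3 chains, and in APOE2 to APOE3 15.9% without cells over 30000 UMIs, against 24.7% and 24.6%. List medians of APOE4 to APOE2 moved to -0.44 for effector and memory genes without the limit on Acta2 and Tagln, to 1.27 for naive genes and 0.92 for cytotoxic genes without cells over 30000 UMIs, and for cytotoxic genes to 0.46 with at least 2 UMIs on CD3 chains and 0.68 as a mean of each cell's CPM. The naive, cytotoxic and type 17 and gamma delta medians kept their direction under all alternatives run.

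Medians with an interval across 0 changed sign too without cells over 30000 UMIs. In APOE4 to APOE2 they went from 0.18 to -0.26 for MHC class I and from 0.58 to -0.01 for regulatory genes. In APOE2 to APOE3 they went from -0.17 to 0.20 for effector, -0.43 to 0.16 for T cell receptor signalling, -0.31 to 0.25 for interferon-stimulated, -0.16 to 0.48 for chemokine and cytokine receptor and 0.40 to -0.36 for immediate early genes. The reversed log2 ratios follow, and the cause was not tested except where the alternative removes the cells that held the UMIs. At a minimum of 2 UMIs on the CD3 and Trbc genes, APOE4 to APOE2 was 0.054 for Gata3 and 0.059 for type 2 genes. At a minimum of 5, APOE2 to APOE3 was 1.55 for type 2 and 0.77 for tissue residence genes, and APOE4 to APOE3 0.45 for immediate early genes. Without the limit on Acta2 and Tagln, APOE2 to APOE3 was 0.083 for Mdm4, -0.27 for Psmb2, 0.095 for tissue residence and 0.080 for proliferation genes, and APOE4 to APOE2 was 0.35 for Fos, 0.52 for Egr1, 0.35 for Nr4a1, 0.014 for Dnajb1, 0.20 for Dusp1, 0.18 for Zfp36, 0.15 for Atf3 and 0.15 for the immediate early median. Without cells over 30000 UMIs, APOE4 to APOE2 was -0.12 for Trbc2 and 0.87 for Igfbp4, and as a mean of each cell's CPM -0.063 and 0.30. With at least 2 UMIs on CD3 chains, APOE4 to APOE2 was 0.15 for Gata3, 0.83 for Igfbp4, -1.34 for Gzmb and 0.14 for type 2 genes, APOE2 to APOE3 1.15 for tissue residence and APOE4 to APOE3 0.28 for immediate early genes. Of the genes named by size, the 16 of APOE4 to APOE2 and the 8 of APOE4 to APOE3 with a ratio changed sign under no alternative run. Depth limits the APOE3 values most, at 57656 member UMIs, where a count of 0 allows 3 UMIs.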
